A study of Mus musculus with 8 samples.

Results

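The miR-17-92 guide strands are the 6 mature miRNAs named without a star that are cut from the miR-17-92 transcript, namely mmu-miR-17, mmu-miR-18a, mmu-miR-19a, mmu-miR-20a, mmu-miR-19b and mmu-miR-92a, written here without the prefix for mouse. They were taken by exact name from the 611 mouse miRNAs on the array. The tissue came from female, 5-week-old FVB/n mice at puberty, all of which carried green fluorescent protein (GFP) driven by the β-actin promoter, which is active in most cell types, so that the ductal tree could be seen and dissected. Terminal end buds (TEBs), the proliferating tips of the ducts, were profiled on 3 arrays, mature ducts behind them on 2 arrays and distal stroma, the supporting tissue away from the ducts, on 3 arrays. No group was treated. Each array measured total RNA of 1 sample in a single colour on an Agilent mouse miRNA microarray, and the number of animals behind a sample is not given in the sources used here. The p-values below therefore measure the spread between these samples, part of which may be technical.

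A miRNA is cut as a hairpin from a longer transcript, and 1 arm of the hairpin, the guide strand, is loaded into an Argonaute protein while the other arm, the passenger strand, is mostly degraded. The guide recognises messenger RNAs mainly through its seed, the bases near its 5′ end, so that miRNAs with a shared seed share most predicted targets. The miR-17-92 hairpins lie in the non-coding host gene Mir17hg, which Myc and E2F factors activate, and the cluster is known as a proto-oncogene that is amplified in lymphoma and promotes proliferation and survival. It is one of several related clusters, and its paralogues make miRNAs with the same seeds from other chromosomes.

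The mature sequences are printed 5′ to 3′ from RefSeq, because the seed and the near-identity of some members determine what each measurement can stand for. Capitals mark the seed, bases 2 to 8.
miR-17: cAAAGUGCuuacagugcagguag
miR-18a: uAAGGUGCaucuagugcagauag
miR-19a: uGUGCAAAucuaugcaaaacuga
miR-20a: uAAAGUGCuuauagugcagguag
miR-19b: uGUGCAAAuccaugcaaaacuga
miR-92a: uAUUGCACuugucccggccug

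The 6 guides carried 4 distinct seeds. miR-17 and miR-20a shared AAAGUGC, miR-19a and miR-19b shared GUGCAAA, and miR-18a and miR-92a each had a seed found in no other member. miR-17 and miR-20a were identical at 21 of 23 bases and differed by C1U and C12U, where positions count from 1 at the 5′ end and the base of miR-17 comes first. miR-19a and miR-19b were identical at 22 of 23 bases and differed by U11C, with the base of miR-19a first. Whether the array probes separate such close sequences was not tested.

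In build GRCm38.p6 the 6 hairpins spanned 836 bases on the plus strand at chr14:115043671-115044506. The mature strands followed each other in the order in which they are listed above. miR-17 lay at chr14:115043684-115043706, miR-18a at chr14:115043867-115043889, miR-19a at chr14:115044048-115044070 and miR-20a at chr14:115044183-115044205. miR-19b lay at chr14:115044358-115044380 and miR-92a at chr14:115044476-115044496. The same mature miR-19b and miR-92a are also made from the minus strand of chromosome X, at chrX:52741991-52742013 and chrX:52741854-52741874, so that the signals of these 2 members cannot be assigned to 1 locus.

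The deposited signal of a miRNA is an intensity from which the scanner software has subtracted the background, so that weak signals can be negative. Between 23.2% and 27.7% of the mouse miRNAs were detected on an array, and the summed signal was 54239 to 88828 units. For comparison between arrays each one was multiplied by a factor (0.75 to 1.36) that set its 75th percentile over the 108 miRNAs detected on all 8 arrays to a common value, and these scaled signals are the values given below. Of the 7 epithelial marker miRNAs, all 5 TEB and duct arrays detected 6 and no stroma array detected any, and their summed scaled signal was 1956 to 2059 in TEBs, 2078 to 2306 in ducts and -66.4 to -21.7 in stroma. The stroma arrays thus carried no detected epithelial marker, and the summed signal in ducts was slightly above that in TEBs. Of the 6 detected markers 1, miR-200a, was 2.97-fold higher in ducts than in TEBs (log2 difference -1.57, adjusted p = 0.00037 in limma) and is named because its values stood out. In bulk tissue, fewer cells of a type and less RNA per cell cannot be told apart. The 408 miRNAs detected on no array did not centre on 0. Their median scaled signal was -7.96 to -4.31 on the TEB arrays, -15.9 and -8.45 on the duct arrays and -16.8 to -9.08 on the stroma arrays, an offset that moved with tissue and bears on weakly detected members.

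For 5 of the 6 guide strands every TEB array was above every duct and stroma array, a separation found in 15.6% of the 167 miRNAs that were tested. A miRNA was tested if at least 1 tissue had it detected on all of its arrays. miR-18a and miR-19a showed the large differences, miR-20a and miR-19b moderate ones and miR-92a the smallest. miR-17 was detected on 0 of the 8 arrays and could not be compared. miR-20a, miR-19b and miR-92a were detected on all 8 arrays.

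**Figure D1:**
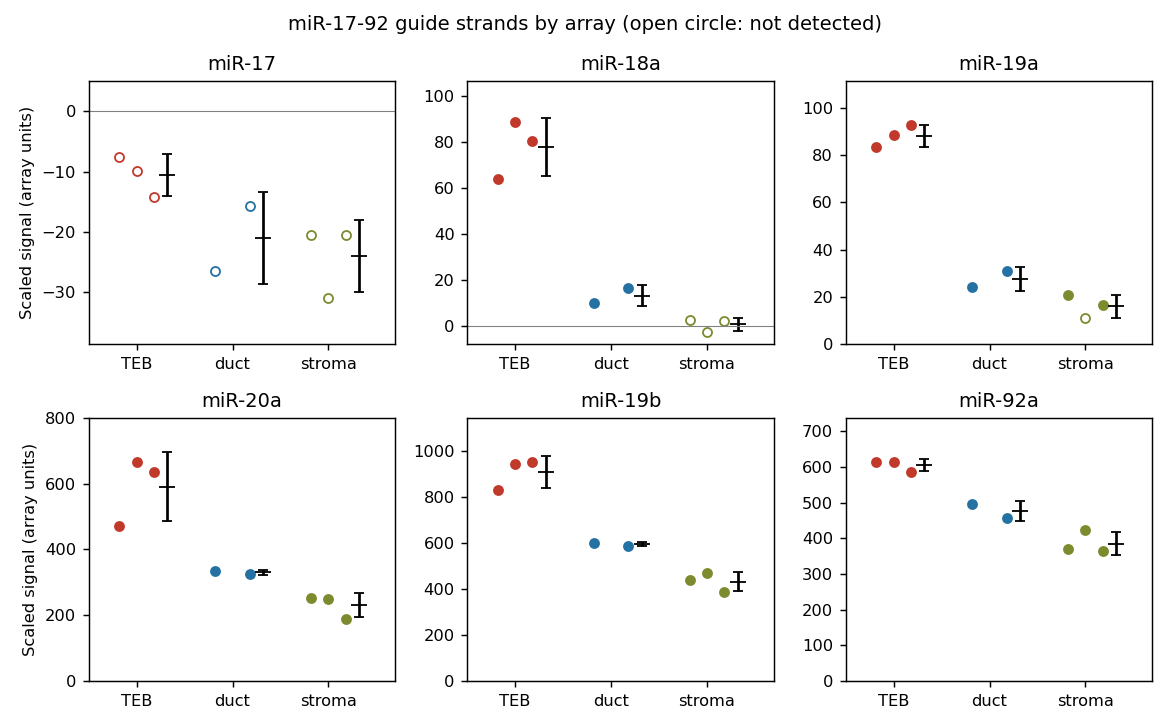
Scaled signal (array units, linear axis) of each guide strand on every array, by tissue. Filled circles are detected and open circles not detected, and the bar beside each tissue is the mean ± SD (3 TEB, 2 duct and 3 stroma arrays). For the 5 members with a detected signal all TEB points lie above all duct and stroma points, while miR-17 is negative throughout.

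The comparison of TEBs with mature ducts asks which miRNAs mark the growing end of the epithelium. miR-18a, the only guide of the cluster with its seed and one known to repress the oestrogen receptor gene Esr1, had scaled signals of 64.0, 88.7 and 80.4 on the TEB arrays against 9.89 and 16.4 on the duct arrays. The group means were 77.7 ± 12.5 (SD, n = 3) and 13.2 ± 4.62 (SD, n = 2), and the lowest TEB array was far above the higher duct array. The difference was 2.59 on the log2 scale (standard error 0.43, 6.04-fold, adjusted p = 0.013 in limma). On the first duct array miR-18a was the weakest of the miRNAs called detected, with an unscaled signal of 13.2 and a software error of 10.7, so that the duct level was poorly determined.

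miR-19a, the partner of miR-19b by seed, had 83.3, 88.4 and 92.8 units in TEBs against 24.1 and 31.0 in ducts. It rose by 1.69 on the log2 scale (standard error 0.26, 3.22-fold, adjusted p = 0.012 in limma). The TEB arrays agreed closely for this member, with an SD of 4.76 about a mean of 88.2, and the distance to ducts was many times that spread.

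miR-20a, which like miR-17 represses the cell cycle inhibitor Cdkn1a and the transcription factor E2F1, had 471, 667 and 634 units in TEBs against 335 and 325 in ducts. TEB 1 was the lowest of the 3 TEB arrays and still above both ducts. The difference was 0.82 on the log2 scale (standard error 0.20, 1.77-fold, adjusted p = 0.027 in limma). miR-19b had 831, 945 and 955 units in TEBs against 602 and 588 in ducts, again with TEB 1 lowest. It rose by 0.61 (standard error 0.12, 1.53-fold, adjusted p = 0.017 in limma).

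miR-92a, known for restraining vessel growth in endothelium, had 614, 615 and 585 units in TEBs against 498 and 458 in ducts. The arrays of the 2 tissues did not overlap, but the difference was small, 0.34 on the log2 scale (95% interval 0.09 to 0.59, 1.27-fold), and did not pass at an adjusted p of 0.055 in limma.

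In all, 4 of the 5 tested members were higher in TEBs than in ducts by limma, where 11.4% of the 167 tested miRNAs were. Every TEB array exceeded every duct array for 5 of 5 members, a separation that 22.2% of the tested miRNAs showed. The median log2 difference of the 5 members was 0.82, against -0.10 over all tested miRNAs. For each member the exact two-sided permutation test of 3 arrays against 2 gave p = 0.1, the smallest it allows.

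The count rested on single arrays. Without TEB 2 and without duct 1 it fell to 0 of 5 by limma, with 5 and 4 members at an unadjusted p under 0.05. The differences themselves held, with miR-18a at 2.49 and 2.02, miR-19a at 1.68 and 1.29, miR-20a at 0.73 and 0.64, miR-19b at 0.58 and 0.42 and miR-92a at 0.33 and 0.19. Without duct 2 the count was 2 and without TEB 3 it was 3.

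The arrays lay in 2 rows of the slide, each with all 3 tissues. In the first row miR-18a differed between TEB and duct by 2.93, miR-19a by 1.83, miR-20a by 0.74, miR-19b by 0.56 and miR-92a by 0.31. In the second row the same differences were 2.29, 1.58, 0.97, 0.70 and 0.35, so that TEBs were higher for each of the 5 members in both rows.

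Under the other scalings all 5 members stayed higher in TEBs than in ducts, except that miR-92a was at -0.02 without any scaling. Without scaling the calls of miR-20a (0.46) and miR-19b (0.25) were also lost and the count fell from 4 to 2 in limma. The median of all tested miRNAs itself moved with the scaling, from -0.10 to 0.45 with the 75th percentile over all mouse miRNAs, 0.02 with quantile normalization, 0.04 with the median of the detected miRNAs and -0.47 with none. The share of calls that were higher in TEBs moved with it, from 46.3% to 80%, 71.4%, 60.6% and 16%. A factor per array moves the members and that median alike, so that only quantile normalization could change their distance from it. As reported, the log2 difference lay 2.70 above the median for miR-18a, 1.79 for miR-19a, 0.93 for miR-20a, 0.71 for miR-19b and 0.45 for miR-92a. With quantile normalization it lay 2.90, 1.98, 0.85, 0.55 and 0.17 above it in the same order.

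Markers of other cell types were compared between TEBs and ducts as well. The summed scaled signal of 3 red cell miRNAs was 1385 to 1923 in TEBs and 2617 to 3320 in ducts, and that of 2 endothelial miRNAs 1312 to 1646 and 1906 to 2051. Both sums were lower in TEBs, where the miR-17-92 guides were higher. The 5 fibroblast and smooth muscle miRNAs summed to 3156 to 3775 in TEBs and 3427 to 3510 in ducts, and the 5 leukocyte miRNAs to 295 to 445 and 348 to 349. By limma 0 of 3 tested red cell, 0 of 1 endothelial and 0 of 2 leukocyte miRNAs were called. In the fibroblast and smooth muscle list 1 of 4 was called, lower in TEBs, as were 13.2% of all tested miRNAs. The part of these cell types in the difference of the members was not tested. With the TEB and duct arrays scaled to the 6 detected epithelial markers instead, an alternative chosen after seeing the data, the members differed by 2.89, 1.98, 1.12, 0.90 and 0.63 in the order miR-18a, miR-19a, miR-20a, miR-19b and miR-92a, and 5 of 5 passed in limma, where 14.4% of the tested miRNAs were higher in TEBs. The median of all tested miRNAs on that scale was 0.19, against -0.10 as reported, and miR-200a is 1 of the markers that set it.

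Against the stroma all 5 tested members were higher in TEBs. miR-18a was detected on 0 of the 3 stroma arrays, with scaled signals of 2.54, -2.55 and 2.12. It was at least 10.3-fold higher in TEBs on the scale of the deposited signals. The adjusted p of 5.8e-05 in limma belongs to its fitted log2 difference of 5.46. For the bound the mean in TEBs was set against the weakest signal called detected on each stroma array. The fitted difference of an undetected miRNA depends on the floor. This bound does not hold once the offset of the undetected miRNAs is removed. The log2 difference was then 2.62, and it was 2.49 with 16 added to each signal. miR-19a had 20.8, 11.2 and 16.4 units in stroma, not detected on the second array, and was 5.64-fold higher in TEBs (log2 difference 2.50, standard error 0.24, adjusted p = 0.00025 in limma). With the undetected miRNAs centred on 0 its difference was 1.71.

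The 3 members detected everywhere followed with smaller differences. miR-20a had 253, 250 and 188 units in stroma, less than all TEB arrays, and was 2.56-fold higher in TEBs (log2 difference 1.36, standard error 0.18, adjusted p = 0.0011 in limma). miR-19b had 439, 468 and 387 units in stroma and was 2.11-fold higher in TEBs (1.08, standard error 0.11, adjusted p = 0.0003 in limma). miR-92a had 370, 422 and 363 units and was 1.57-fold higher in TEBs (0.65, standard error 0.09, adjusted p = 0.0014 in limma).

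Thus 5 of 5 tested members passed as higher in TEBs than in stroma, a call made for 20.4% of the tested miRNAs, and 5 of 5 had every TEB array above every stroma array, which 24% did. The median log2 difference was 1.36 for the members and -0.28 for all tested miRNAs. miR-18a entered this test only through TEBs and ducts, the tissues where it was high, so that its direction against stroma was fixed by the filter. miR-19a, detected on 2 of the 3 stroma arrays, also entered only through TEBs and ducts, so that the filter favoured its direction. The count was 5 with each array left out in turn. In the first slide row the differences were 4.89, 2.04, 1.15, 1.01 and 0.73 for miR-18a, miR-19a, miR-20a, miR-19b and miR-92a, and in the second 5.79, 2.78, 1.55, 1.17 and 0.58. The share of all calls higher in TEBs was 31.5%, and 57.6%, 40.6%, 62.1% and 50% with the 4 other scalings, in the order given above.

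TEBs and stroma also differed in these marker lists. The epithelial markers were absent from stroma, the leukocyte list summed to 544 to 669 in stroma and the endothelial list to 2757 to 3847, both above TEBs, while the fibroblast and smooth muscle list was lower there, at 2466 to 2963. The red cell list reached 2018 to 3622, and the 4 skeletal muscle miRNAs summed to at most 169.9 units on any array. What these differences in tissue make-up contribute to the members was not tested.

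Mature ducts and stroma differed less. The 2 duct arrays were above all 3 stroma arrays for 5 of 5 members, as for 22.2% of the tested miRNAs, and 2 of 5 members passed as higher in ducts in limma, against 9.58% of the tested miRNAs. These were miR-18a (adjusted p = 0.0038) and miR-19b, 1.38-fold higher (log2 difference 0.47, standard error 0.12, adjusted p = 0.034). The p-value of miR-18a belongs to its fitted log2 difference of 2.86, which depends on the floor. The bound for its group means, set as for TEBs, was 1.71-fold on the deposited scale. It was not firm, because duct 1 at 9.89 lay below the weakest detected signals of stroma 1 (11.0) and stroma 2 (11.9). miR-18a entered the test only through TEBs and ducts, so that its direction against stroma was fixed by the filter. Of 24 alternatives 4 lost its call and 1 turned its sign. For miR-19b 10 of 25 alternatives lost the call. Among them were the fits without TEB 2, duct 2, stroma 1 or stroma 3, with differences of 0.39 to 0.48. With the 75th percentile over all mouse miRNAs its difference was 0.31 (adjusted p = 0.59 in limma).
For miR-19a the difference was 0.81 (95% interval 0.18 to 1.44, adjusted p = 0.078 in limma), for miR-20a 0.53 (0.05 to 1.01, adjusted p = 0.11) and for miR-92a 0.31 (0.06 to 0.56, adjusted p = 0.083), which did not pass. Between the slide rows miR-19a was at 0.21 and 1.20 and miR-18a at 1.96 and 3.49. With the undetected miRNAs centred on 0 the difference of miR-18a fell to 0.90 and that of miR-19a to 0.46. With the normexp background correction both turned, to -0.17 and -0.15, so the order of ducts and stroma for these 2 weak members depends on the background. The share of all calls higher in ducts was 44.4%, and 57.9%, 47.2%, 81.8% and 92.9% with the other scalings.

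As reported, the mean of each tested member had the order TEB, duct, stroma over all 3 tissues. For miR-18a and miR-19a the order of ducts and stroma depended on the background and turned with normexp. The step from duct to TEB passed for 4 members and the step from stroma to duct for 2. Higher in TEBs than in both other tissues by limma were 4 of 5 members, against 10.2% of the tested miRNAs. Against the other 5 arrays as 1 group, the 3 TEB arrays were higher for 5 of 5 members without overlap. The exact two-sided permutation test gave p = 0.0179, the smallest that 3 against 5 arrays allows, for miR-19a, miR-20a, miR-19b and miR-92a, and p = 0.0357 for miR-18a.

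**Figure D2:**
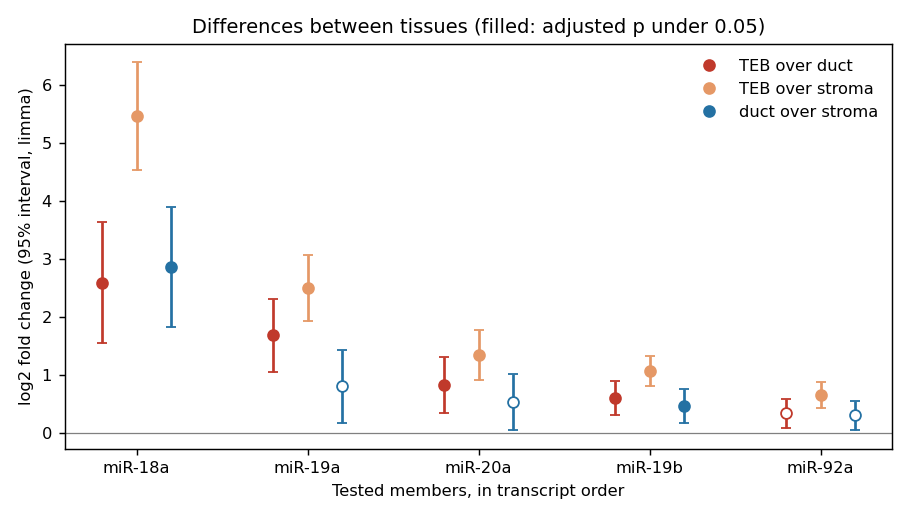
log2 difference between tissues (vertical axis) for the 5 tested members, in their order along the transcript, with 95% intervals from limma. Filled points have an adjusted p under 0.05, and the differences fall from miR-18a to miR-92a in each of the 3 comparisons; the values of miR-18a against stroma, and so its place there, depend on the floor set for undetected signals.

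The members did not change by equal amounts, and the differences between TEBs and ducts fell in the order of the hairpins on the transcript. From miR-18a through miR-19a, miR-20a and miR-19b to miR-92a, the log2 difference between TEBs and ducts fell from 2.59 to 1.69, 0.82, 0.61 and 0.34. The hairpins of these members start 180, 329, 486, 634 and 756 bases after that of miR-17. miR-19b and miR-92a are also made from chromosome X, so their differences cannot be assigned to a position on this transcript. Only miR-18a, miR-19a and miR-20a come from this locus alone. The fitted differences from stroma fell in the same order, but the place of miR-18a there depends on the floor. For ducts over stroma its bound of 0.77 lies below the 0.81 of miR-19a, so that its first place was not established.

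The order between TEBs and ducts held in 24 of the 25 alternative settings that kept all 5 members, and between TEBs and stroma in 23 of 24. The exception in both was the normexp background correction, which adds an offset of 50 to all signals. It gave 0.84, 0.71, 0.72, 0.56 and 0.30 between TEBs and ducts, and 0.68, 0.56, 1.06, 0.94 and 0.54 between TEBs and stroma. For ducts over stroma the order held in 17 of 24 settings. Many settings could not change the order, so these counts overstate its support. Between TEBs and ducts, another test, variance model, filter or floor at the lowest detected signal, or omitting stroma 1 or 3, repeated the reported values. A factor per array, or omitting stroma 2, moved all members alike. The order could change, but held, with quantile normalization, 16 added, the value table and the replicate block. It also held with the slide row fitted and with each TEB or duct array left out. The 2 leading members, miR-18a and miR-19a, were also the 2 with signals under 100 units, where the offset of the undetected miRNAs counts for most. With that offset removed, which was tried after seeing the data, the TEB to duct differences were 1.72, 1.25, 0.80, 0.60 and 0.33. The 2 weak members moved down by that step, the other 3 by at most a few hundredths, and the order stayed.

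**Figure D3:**
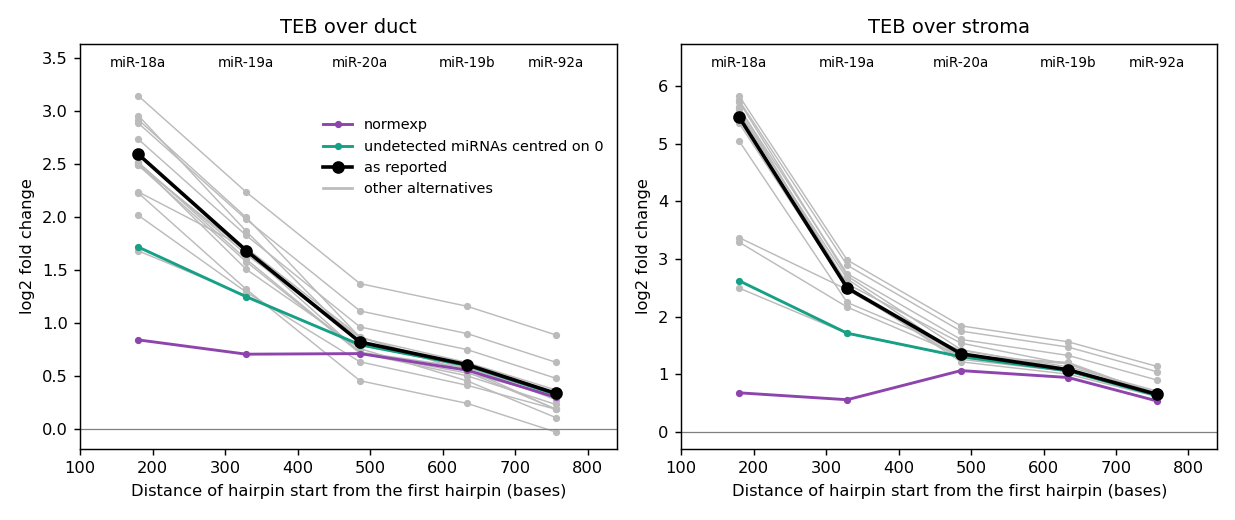
log2 difference of each tested member (vertical axis) against the distance of its hairpin from the first hairpin of the cluster in bases (horizontal axis). The black line gives the reported values. Coloured lines show the normexp correction and the centring of undetected miRNAs, and grey lines the other alternatives. All but normexp fall from miR-18a to miR-92a. Several grey lines repeat the reported values or, between TEBs and ducts, shift all members alike. miR-19b and miR-92a are also made from chromosome X, so their signals cannot be assigned to this transcript.

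A ratio of 2 members on the same array does not depend on the scaling between arrays. The log2 ratio of miR-18a to miR-92a was 2.25 higher in TEBs than in ducts, that of miR-19a to miR-92a 1.35 higher, that of miR-20a to miR-92a 0.48 higher and that of miR-19b to miR-92a 0.27 higher. Within the pair that shares a seed, the ratio of miR-19a to miR-19b was 1.08 higher in TEBs. In each of the 10 pairs of tested members the one nearer the start of the transcript rose more. This follows from the order of the differences given above and is not a separate result.

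With 3 arrays against 2 the exact permutation test of these ratios could not go below p = 0.1. The exact test gave p = 0.1 for 7 pairs and p = 0.2 for the 3 pairs among miR-20a, miR-19b and miR-92a (adjusted p = 0.143 and 0.2 over the 10 pairs). Against the other 5 arrays together, all 10 ratios were higher in TEBs at p = 0.0179 or 0.0357 by the exact permutation test (adjusted p = 0.0357 over the 10 pairs), with differences from 0.25 for miR-20a to miR-19b up to 3.78 for miR-18a to miR-92a. The ratios of miR-18a include stroma arrays where it was set to the floor or not detected. When an array was left out the number of ratios that passed was 0 to 10.

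**Figure D4:**
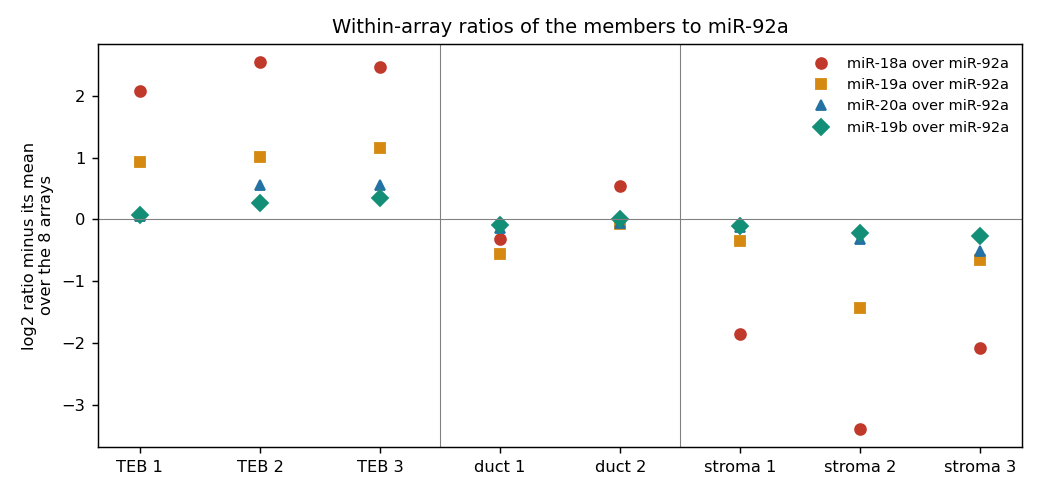
log2 ratio of 4 members to miR-92a on each array, with the mean over the 8 arrays subtracted from each ratio (vertical axis), by array (horizontal axis). The ratios of miR-18a and miR-19a stand well above their means on the 3 TEB arrays and below them on the 3 stroma arrays, while that of miR-19b moves least.

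Across the 8 arrays the members varied together. The log2 level of each tested member correlated with the mean of the other 4 at r of 0.934 to 0.976, and single pairs at 0.890 for miR-19a and miR-92a up to 0.990 for miR-20a and miR-19b. These are descriptions over 8 arrays that share their tissue contrast and scaling.

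miR-17, the first guide of the transcript, had scaled signals of -7.53, -9.83 and -14.3 in TEBs, -26.4 and -15.6 in ducts and -20.5, -30.9 and -20.5 in stroma. They lay below the median of the undetected miRNAs on every array. The arrays thus gave no level for miR-17 in any tissue, although miR-20a, which shares its seed and 21 of 23 bases, was detected on all of them.

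Of the 5 passenger strands of the cluster on the array, miR-19a*, miR-20a* and miR-92a* were detected on 0 arrays. miR-17*, the other arm of the miR-17 hairpin, was detected on 2 of the 3 TEB arrays and nowhere else. Its scaled signals were 11.5, 11.5 and 9.12 in TEBs, -8.27 and -0.35 in ducts and -10.3, -14.6 and -5.11 in stroma, so that TEBs were higher on every array, within a few units of the background. It was not detected on all arrays of a tissue and was not tested.

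The 1 passenger strand that was tested was not detected in TEBs. It entered the test only through ducts and stroma, where it was high, so that its direction against TEBs was fixed by the filter and its values are a description.
miR-18a*: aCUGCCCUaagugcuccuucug
miR-18a* had 1.83, 8.54 and 10.9 units in TEBs, detected on none of the 3 arrays, against 36.7 and 19.6 in ducts and 20.5, 40.2 and 30.5 in stroma, detected on all 5. Its mean ± SD was 7.10 ± 4.72 over the 3 TEB arrays, 28.1 ± 12.1 over the 2 duct arrays and 30.4 ± 9.83 over the 3 stroma arrays, and ducts and stroma overlapped. The adjusted p in limma was 0.022 against stroma, where 44.3% of the tested miRNAs were higher in stroma, and 0.066 against ducts, where 13.2% were higher in ducts. The call against stroma was lost without stroma 2 (log2 difference -2.18) and without stroma 3 (-2.37). On the same arrays miR-18a, from the other arm, was highest in TEBs.

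Guides outside the cluster that carry a member's seed were compared next, since the paralogous clusters make some of them. Of the 9 on the array, miR-18b, miR-32, miR-363 and miR-367 were detected on 0 arrays and miR-92b only on duct 1. The 4 that were tested are printed with the seed in capitals.
miR-20b: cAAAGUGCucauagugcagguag
miR-93: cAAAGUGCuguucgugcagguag
miR-106b: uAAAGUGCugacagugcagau
miR-25: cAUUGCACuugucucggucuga

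miR-20b, from the paralogous cluster on the X chromosome, differed from miR-20a by U1C and U10C, with the base of miR-20a first. It had 86.4, 120 and 118 units in TEBs, 47.7 and 53.8 in ducts and 33.4, 40.5 and 35.7 in stroma, the same order of tissues as the members. It was higher in TEBs than in ducts by 1.08 on the log2 scale (standard error 0.18, adjusted p = 0.013 in limma) and higher than in stroma by 1.55 (adjusted p = 0.00032).

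miR-93, miR-106b and miR-25 share 1 transcript, an intron of Mcm7, and only miR-93 was called higher in TEBs. Whether they differed from each other was not tested. miR-93 had 77.1, 89.0 and 84.5 units in TEBs, 56.6 and 47.0 in ducts and 60.1, 53.9 and 51.8 in stroma. It was higher in TEBs than in ducts by 0.69 (standard error 0.13, adjusted p = 0.015 in limma) and than in stroma by 0.60 (adjusted p = 0.0049), and ducts and stroma overlapped. miR-106b, with the same seed, differed between TEBs and ducts by 0.12 (95% interval -0.39 to 0.63, adjusted p = 0.70 in limma). miR-25, with the seed of miR-92a, differed by 0.04 (95% interval -0.28 to 0.35, adjusted p = 0.86). For both, the TEB arrays overlapped the ducts, and the upper bounds lay near the differences of miR-19b and miR-92a.

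In all, 2 of these 4 were higher in TEBs than in ducts (11.4% of the tested miRNAs) and 2 of 4 higher than in stroma (20.4%), while 0 of 4 differed between ducts and stroma in limma (9.58% higher in ducts). Both calls against ducts were lost without TEB 2 and without duct 1, and that of miR-93 also without duct 2. Between ducts and stroma miR-20b alone was under 0.05 before adjustment, in limma and in the methods' t-test, and the latter also called 0 after Benjamini-Hochberg.

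**Figure D5:**
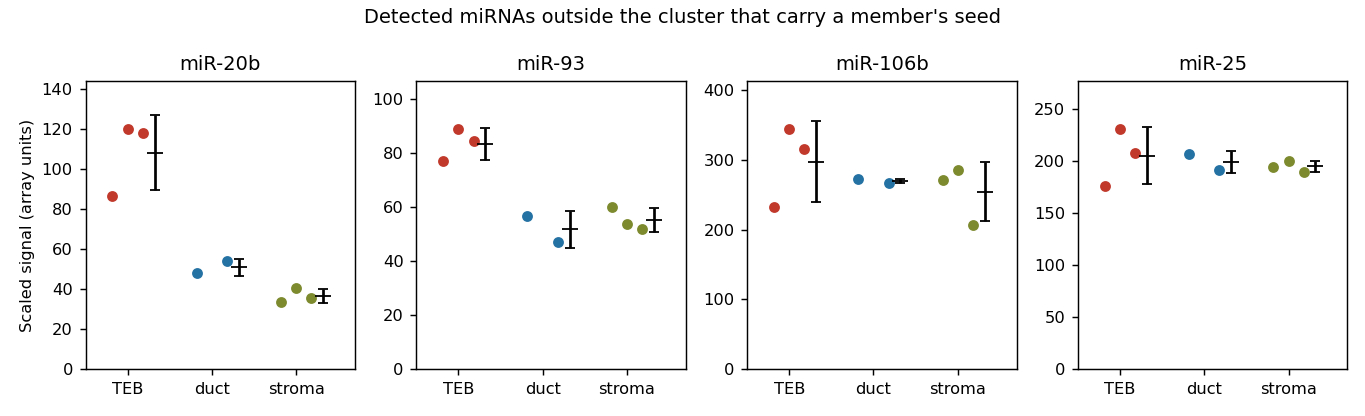
Scaled signal (array units, linear axis) of the 4 tested miRNAs outside the cluster that carry a member's seed, by tissue, with one circle per array and the mean ± SD beside it. miR-20b and miR-93 are highest on the 3 TEB arrays, and miR-106b and miR-25 overlap between tissues.

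The miRNAs whose pattern was most like the mean of the 5 tested members were ranked by Pearson's r over the 8 arrays among the 162 other tested miRNAs. miR-210, which hypoxia induces, came first at r = 0.985, followed by miR-20b at 0.962, miR-214 at 0.959, miR-503 at 0.941 and miR-132 at 0.933. miR-31, which the study sets beside the cluster, was at rank 9 with r = 0.904. The choice by likeness to a profile that is high in TEBs fixes their order of tissues, and their values are a description. miR-210 had 97.8 to 141 units in TEBs, 34.3 and 50.5 in ducts and 16.9 to 25.6 in stroma. miR-503, miR-132 and miR-31 were weak, between 11.5 and 25.4 units in TEBs and not detected on any stroma array. Of the 5 nearest, 3 remained with the 75th percentile over all mouse miRNAs and 2 without scaling or by Spearman's rho, so that the list depended on the scaling and on the measure of likeness.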

How the data were processed

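The members and comparison lists were chosen with earlier results of these data known. Per the labels, total RNA was labelled with Cy3-pCp, hybridised to an Agilent mouse miRNA array (V2) and read with Feature Extraction 9.5.3. For each miRNA the authors deposited the total intensity, background-subtracted and not normalized between arrays, its error and a detection flag. A table of log2 values that the authors deposited tracked the log2 intensity above 20 units (r of 0.996 to 0.999 per array), with column medians of 0.17 to 1.69. Its scaling and centring are not given in the sources used here, and it served as an alternative. The 39 viral and 22 control entries were left out. Scaled intensities under 1 were set to 1, log2 values were taken, and the 167 miRNAs that all arrays of 1 or more tissues detected were fitted over the 8 arrays with limma 3.58.1 in R 4.3.3, with Benjamini-Hochberg adjustment within each comparison at 0.05. Members and ratios were compared by exact permutation tests. The procedure was tested on simulated data. Alternatives covered scaling, floor, background, filters, the value table, replicate block, slide row, variance model, the methods' t-test and leaving out arrays. Named were all members, their passenger strands, listed miRNAs with the same seeds, and the 5 miRNAs most like the members with miR-31. RefSeq (GRCm38.p6) held 19 of 20 names, and miR-106a was not analysed here. The files hold no counts, and the number of arrays limits the precision.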

Additional observations from a re-analysis of the deposited data

How the results depend on the processing

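Of the differences of the members, those between TEBs and stroma kept direction and call in every alternative in which the member was tested. The 5 members called there became 3 when only miRNAs detected on all 8 arrays were tested, since miR-18a and miR-19a left the test, and stayed at 5 with each array left out. Between TEBs and ducts 4 members were called, 2 without scaling, 2 without a detection filter (where most variances were 0 and limma warned of an unreliable fit) and 1 by the methods' t-test after Benjamini-Hochberg, with 5 at its unadjusted threshold. With arrays left out the count was 0 to 4. Over all alternatives the limma adjusted p ranged from 0.0011 to 0.0671 for miR-18a, 0.0011 to 0.0749 for miR-19a, 0.0099 to 0.20 for miR-20a and 0.0045 to 0.338 for miR-19b. Between ducts and stroma 2 members were called. The count was 5 without scaling and with the median of the detected miRNAs, and 1 with the 75th percentile of all mouse miRNAs, the floor at the lowest detected signal, normexp, no detection filter, only miRNAs detected on all arrays, the slide row as a covariate and a fit on only the 2 tissues. It was 0 by the methods' t-test after adjustment, with 2 unadjusted, and 1 to 4 with arrays left out. Whether the replicate numbers pair the arrays was not settled. Same-numbered arrays correlated at a mean of -0.10 in their deviations from tissue means over 7 pairs, other pairs at 0.05 over 14. The deviations of the 2 duct arrays are exact opposites, so that their correlations cancel and this comparison cannot exclude pairing. With the replicate block limma called 0 members between TEBs and ducts (5 at an unadjusted p under 0.05), 5 between TEBs and stroma and 1 between ducts and stroma, and miR-18a* was at 0.13 between ducts and stroma. The exact permutation test called 5 members in TEBs against the other 5 arrays, and 0 to 5 with arrays left out, where fewer arrangements raise its smallest p. It called 10 ratios, and 0 to 10 with arrays left out. Of the 5 miRNAs most like the members, 3 remained with the 75th percentile of all mouse miRNAs, 2 without scaling, 2 by Spearman's rho and 3 with undetected miRNAs centred on 0.

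Signs turned as follows on the log2 scale, and the cause was not tested. Without scaling, TEBs against ducts gave -0.024 for miR-92a, -0.24 for miR-106b and -0.33 for miR-25, and ducts against stroma gave 0.48 for miR-18a* and 0.52 for miR-93. With the median of the detected miRNAs ducts against stroma gave 0.21 for miR-18a* and 0.25 for miR-93. With normexp, ducts against stroma gave -0.17 for miR-18a, -0.15 for miR-19a, -0.080 for miR-20b and -0.067 for miR-25, and TEBs against stroma -0.039 for miR-25. For ducts against stroma, miR-106b and miR-25 were at -0.058 and -0.13 with the 75th percentile of all mouse miRNAs, -0.28 and -0.14 with quantile normalization and -0.28 and -0.12 with the series value table. With arrays left out, TEBs against ducts ranged from -0.12 to 0.036 for miR-25 and -0.077 to 0.12 for miR-106b, TEBs against stroma from -0.024 to 0.20 for miR-25, and ducts against stroma from -0.044 to 0.35 for miR-106b, -0.39 to 0.32 for miR-18a* and -0.14 to 0.15 for miR-93. All of these except miR-18a between ducts and stroma had not passed as reported. The number of all miRNAs called between TEBs and ducts, 41, was 75 without scaling, 27 with normexp, 18 without a filter, 16 with the replicate block, 12 by the methods' t-test after adjustment, 27 on the epithelial scale, 70 with undetected miRNAs centred on 0 and 5 to 70 with arrays left out. Between TEBs and stroma 108 became 66 with the 75th percentile of all mouse miRNAs, and between ducts and stroma 36 became 19 with it, 56 without scaling and 69 with normexp.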
